A study of Mus musculus with 12 samples.

Results

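Crebbp-knockout B16F10 cells were compared with control B16F10 cells across all measured genes. B16F10 is an established mouse melanoma cell line of pigment cell origin. The comparison took 6 of the 12 RNA-seq libraries: 3 of the control, whose genotype is labelled WT, and 3 labelled Crebbp knockout. The other 6 libraries, 3 labelled Ep300 knockout and 3 labelled double knockout of both genes, entered the same fit and served for the tests of differences given last. All groups were grown in DMEM with serum, and no agent other than the gene deletions is named in the labels. Of the 54752 genes in the table, 18434 had enough counts to be tested. Whether a knockout is a clone or a pool, and whether libraries of a group were grown separately, is not given, so the p-values cover only the spread between these libraries, which may be technical.

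CBP, the product of Crebbp, and its paralogue p300, the product of Ep300, are large coactivators. They bind many transcription factors, among them CREB, STAT, AP-1, SMAD and p53 proteins, and acetylate histones and other proteins at enhancers and promoters. In pigment cells they also serve as cofactors of MITF, the factor that drives pigment genes downstream of the melanocortin receptor and cAMP. The comparison asks how transcript levels differ when Crebbp alone is knocked out.

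The 6 libraries held 64257251 counts (control replicate 2) to 80436237 counts (control replicate 1). The biological coefficient of variation over all 12 libraries was 9.46%. In a principal component analysis of the 6 libraries, the first component (29.7% of the variance) separated the groups. The second (26.7%) set control replicate 2 and Crebbp-knockout replicate 3 apart from the other 4 libraries. In these same 2 libraries long genes stood low relative to short ones: the median log2 deviation of the longest quartile minus that of the shortest was -0.23 and -0.24, against 0.08 to 0.13 in the other 4. The main counts below are given with and without these libraries. All 7 melanoma markers (Mitf, Sox10, Pmel, Tyr, Tyrp1, Dct and Mlana) were present, with a summed level of 19448 to 21397 CPM in control and 18351 to 19164 in knockout. CPM are counts scaled to a common library size after TMM scaling. Markers of other cell types stayed low. The 7 fibroblast markers summed to 10.4 to 12.8 CPM in control and 13.0 to 16.8 in knockout, with 3 of them under 1 CPM. The 7 immune markers summed to 3.20 to 4.34 CPM in control and 2.23 to 3.12 in knockout, with Ptprc, Adgre1 and Itgam at 0. Endothelial markers (5 genes) summed to 0.0635 to 0.157 CPM in control and 0.109 to 0.318 in knockout, and epithelial markers (5 genes) to 0.317 to 0.577 and 0.151 to 0.493, with Epcam, Krt5 and Krt18 at 0.

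Crebbp itself (ENSMUSG00000022521) lies on the minus strand of mm10 chromosome 16, from 4081328 to 4213997. It read 69.5, 56.7 and 67.9 CPM in the control libraries and at 36.8, 36.3 and 30.3 CPM in the knockout libraries. The groups did not overlap, and the transcript fell by 0.91 ± 0.12 on the log2 scale (± here and below is the standard error of a log2 fold change; edgeR quasi-likelihood test, adjusted p = 0.000527). Counts per gene do not show which exons remain, so the value does not measure loss of the protein. Ep300 stood at 98.5, 85.5 and 99.2 CPM in control and 111, 111 and 89.9 CPM in knockout. These ranges overlapped, and the log2 difference of 0.14 ± 0.10 did not pass the test (adjusted p = 0.484). In the other groups, total transcript counts did not bear out the labels. Ep300 read 77.5, 82.9 and 94.7 CPM in the libraries labelled Ep300 knockout, which overlapped control (-0.15 ± 0.10, adjusted p = 0.376). In the libraries labelled double knockout it read 146, 160 and 138 CPM, above every control library. Crebbp read 69.1, 80.1 and 92.8 CPM in the libraries labelled Ep300 knockout. It read 66.2, 68.7 and 57.1 CPM in those labelled double knockout, which overlapped control. These libraries are therefore named by their labels, and a loss of p300 or CBP in them is not shown by these values.

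The response was small. At an adjusted p under 0.05, 577 genes (3.13% of those tested) were called, 281 higher (1.52%) and 296 lower (1.61%) in Crebbp knockout. Before adjustment, 3263 genes (17.7%) had a p under 0.05. The median size of the change on the log2 scale was 0.58 among the called rises and 0.51 among the called falls. A change of less than 1.5-fold was measured for 142 of the 281 and 175 of the 296. Only 91 called genes (0.494% of those tested) changed at least 2-fold, 50 upward and 41 downward. In all 577 the 2 groups of libraries did not overlap, which held for 20.5% of all tested genes. In bulk RNA, a change in a transcript per cell and a change in the share of cells that carry it cannot be told apart.

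**Figure D1:**
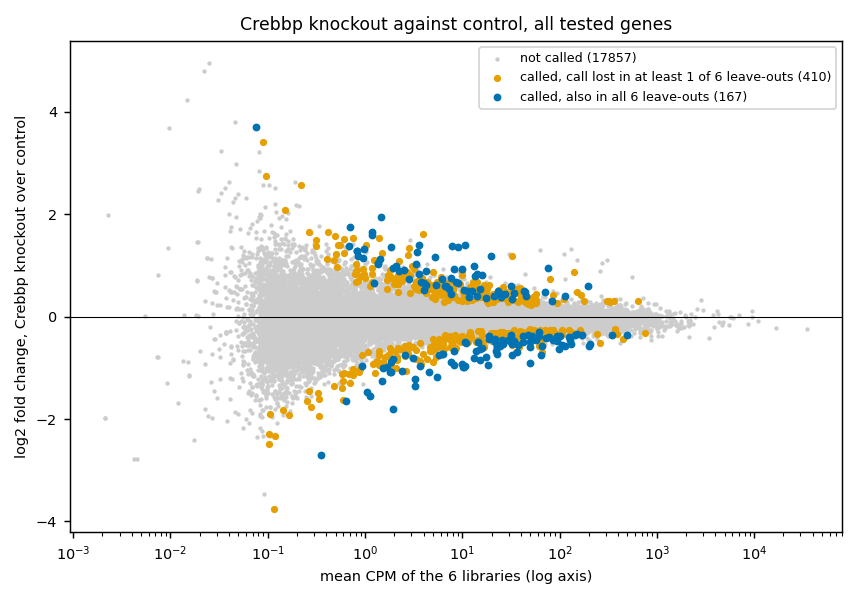
Log2 fold change of Crebbp knockout over control against the mean CPM of the 6 libraries (log axis), 1 point per tested gene. The 167 genes called in the full fit and in each of the 6 fits that leave out 1 of the compared libraries are blue, the other 410 called genes are orange and the 17857 genes not called are grey.

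The genes with the largest rises, at a mean level of 5 CPM or more, belonged to several kinds. Cyp26b1, which encodes a retinoic acid hydroxylase, was measured at 5.81, 5.05 and 6.51 CPM in control and 15.9, 15.9 and 14.2 CPM in knockout. Col8a1, a short-chain collagen, was measured at 4.93, 4.79 and 5.60 CPM in control and 13.5, 12.8 and 12.8 CPM in knockout. In both genes the lowest knockout library lay well above the highest control library. Cyp26b1 rose by 1.40 ± 0.12 on the log2 scale (adjusted p = 2.71e-05) and Col8a1 by 1.35 ± 0.08 (adjusted p = 4.03e-07). The immediate-early gene Egr1 rose by 1.16 ± 0.12. Cck, the gene of the peptide hormone cholecystokinin, rose by 0.99 ± 0.10. Fn1 (fibronectin) rose by 0.95 ± 0.13, Ehd2, a membrane-remodelling ATPase of caveolae, by 0.93 ± 0.10. The receptor tyrosine kinase gene Axl rose by 0.93 ± 0.11. The remaining large rises were the interferon-induced genes Isg15, Rtp4 and Trim30a (0.84, 0.81 and 0.79), the metalloproteinase inhibitor Timp1 (0.76 ± 0.08) and Rn7s2. Rn7s2 encodes the RNA of the signal recognition particle, which exists in near-identical copies, so its count is uncertain. It read 89.2, 116 and 95.2 CPM in control and 132, 198 and 217 CPM in knockout (0.87 ± 0.22, adjusted p = 0.0429), and its call held in 1 of the 6 fits that leave out a compared library.

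Among the largest falls, Ppp1r16b, a regulatory subunit of protein phosphatase 1, was measured at 7.85, 6.91 and 7.93 CPM in control and 3.04, 3.61 and 3.41 CPM in knockout. It fell by 1.18 ± 0.12 (adjusted p = 9.64e-05), with no overlap of the groups. Rapgef3, which encodes the cAMP-activated exchange factor EPAC1, was measured at 12.9, 13.2 and 14.7 CPM in control and 6.57, 7.38 and 6.59 CPM in knockout. It fell by 0.99 ± 0.09 (adjusted p = 5.89e-05), again with no overlap. Slc26a7, an anion transporter, fell by 0.96 ± 0.15. Adam12, a membrane metalloproteinase, fell by 0.89 ± 0.13, and Enho, which encodes the secreted peptide adropin, by 0.78 ± 0.09. The noncoding Mir670hg fell by 0.88 ± 0.17, with its call kept in 3 of 6 leave-outs. Serpinb9b, a serine protease inhibitor, fell by 0.79 ± 0.15, with its call kept in 5 of 6. Hpse, Extl1, Sdc3 and Oca2 were also among the largest falls and are described with their groups below.

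**Figure D2:**
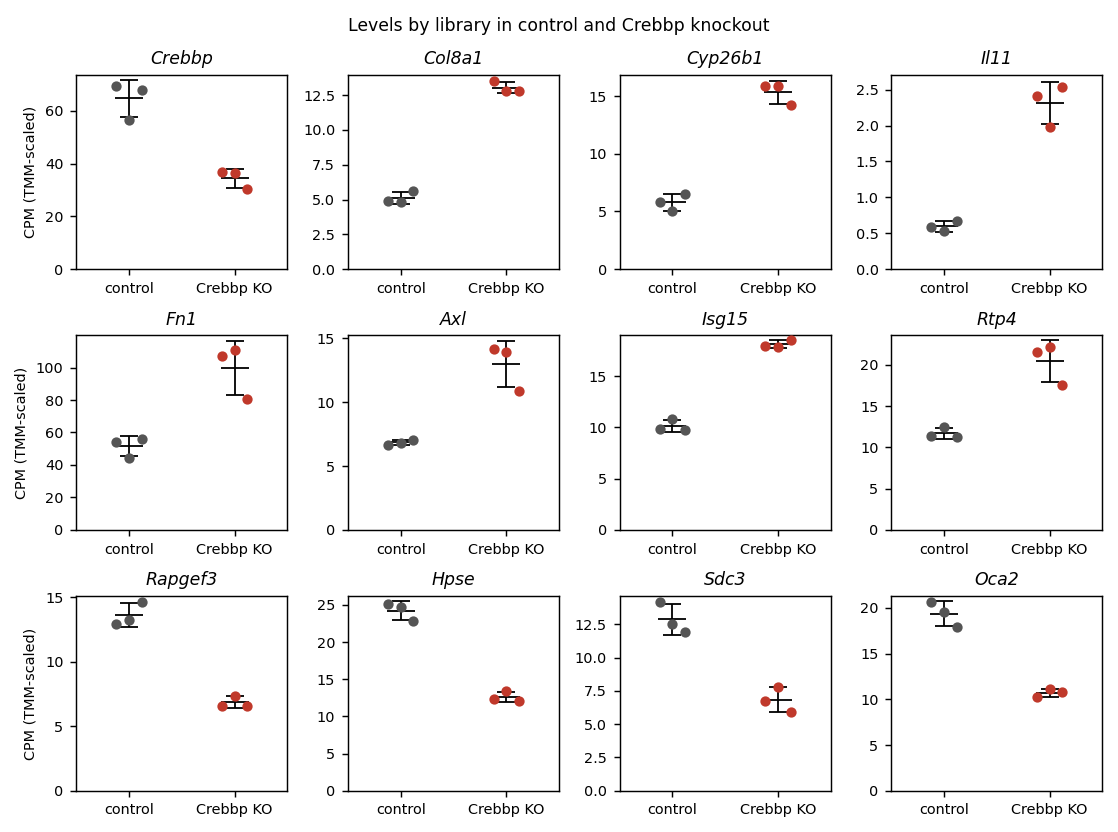
TMM-scaled CPM of Crebbp and 11 called genes in each control library (grey) and each Crebbp-knockout library (red); horizontal lines are means and error bars the SD, n = 3. In all 12 panels the groups do not overlap, and in Fn1, Axl and Rtp4 knockout replicate 3 is the lowest of the 3 knockout libraries.

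Over all tested genes, 1.52% were called higher and 1.61% lower, for comparison with the counts per list below. Of the 32 gene lists, the interferon response held the most called genes. Of 48 tested members of the list, 23 rose, none fell and 25 were not called. The median log2 fold change was 0.38, against -0.01 over all tested genes, and 47 of the 48 had a positive value. Isg15, a ubiquitin-like modifier, stood at 9.80, 10.8 and 9.76 CPM in control and 18.0, 17.8 and 18.5 CPM in knockout. It rose by 0.84 ± 0.06 (adjusted p = 1.57e-05), and no control library came near a knockout library. Rtp4, an interferon-induced chaperone of receptors, stood at 11.4, 12.5 and 11.3 CPM in control and 21.6, 22.2 and 17.6 CPM in knockout (0.81 ± 0.08). Xaf1, a proapoptotic gene, rose by 0.61 ± 0.07. Ifit1, an RNA-binding antiviral protein, rose by 0.49 ± 0.07, the antiviral tether Bst2 by 0.50 ± 0.08 and the oligoadenylate synthetase gene Oas1g by 0.62 ± 0.08. Within the signalling module, Irf9, the DNA-binding subunit of the ISGF3 complex, rose by 0.55 ± 0.09 (adjusted p = 0.00461). Stat2, which partners with Irf9 in that complex, measured 0.30 and did not pass (adjusted p = 0.0568). Irf9 read 19.1, 19.6 and 15.3 CPM in the knockout libraries against 11.8 to 13.2 CPM in control.

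The number of interferon calls varied with the library left out. Each such fit has fewer libraries and is less able to call a change, so a lost call need not mean reliance on that library. Over the 6 leave-outs the rise of Isg15 was 0.81 to 0.89 and that of Ifit1 0.45 to 0.52. The rise of 11 members (Isg15, Rtp4, Oasl1, Oas1g, Xaf1, Irf9, Usp18, Bst2, Ifit1, Trim25 and Cmpk2) was called in all 6 leave-outs. Leaving out control replicate 3 brought the number called to 12, and leaving out replicate 1 or replicate 2 of the Crebbp knockout did the same. The number was 16 and 18 with control replicate 1 or 2 left out, and 28 with knockout replicate 3 left out. With both control replicate 2 and Crebbp-knockout replicate 3 left out, 27 were called. A fit to the 6 compared libraries alone called 9, limma-voom 15 and DESeq2 29.

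Promoter sequence was read for genes with a RefSeq entry (GRCm38.p6, 250 bases before to 50 after each start). There were 14097 such promoters of 11050 tested genes. The core of the interferon-stimulated response element, which ISGF3 and IRF proteins bind, was searched on both strands as GAAA, any 2 bases and GAAA again. They occurred in 3.01% of all promoters, in 13.5% of the 215 promoters of called rises and in 3.96% of the 303 promoters of called falls. The share was 52.4% of the 21 promoters of called interferon members and 44.4% of the 18 promoters of members not called. Shown are 4 promoters of genes called in all 6 leave-outs, chosen because they carry repeated matches. Each line gives 60 bases, 5′ to 3′ on the strand of the gene, with the matches in capitals (on the other strand a match reads TTTC, any 2 bases and TTTC).
Bst2 (chr8:71537562-71537621, minus strand): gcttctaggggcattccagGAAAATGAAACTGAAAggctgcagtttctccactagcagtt
Ifit1 (chr19:34640779-34640838, plus strand): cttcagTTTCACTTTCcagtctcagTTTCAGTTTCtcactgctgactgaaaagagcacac
Isg15 (chr4:156200850-156200909, minus strand): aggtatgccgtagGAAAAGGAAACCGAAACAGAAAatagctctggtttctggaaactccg
Oas1g (chr5:120887614-120887673, minus strand): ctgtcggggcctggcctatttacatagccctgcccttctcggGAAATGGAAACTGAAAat
In Bst2, Isg15 and Oas1g the matches before the start overlap one another, with 2, 3 and 2 of them, while Ifit1 holds 2 separate ones. A match describes the letters only; binding was not measured.

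Genes of MHC class I antigen presentation, which interferons also induce, moved little. Of 18 tested members, B2m and H2-K1 rose and none fell, with a list median of 0.21. B2m, which encodes beta-2 microglobulin, read 337, 307 and 322 CPM in control and 408, 400 and 391 CPM in knockout. The gap was small, at 0.31 ± 0.07 (adjusted p = 0.031). H2-K1, a class I heavy chain that shares sequence with its paralogues, rose by 0.33 ± 0.08 (adjusted p = 0.0391). Each of the pair kept its call in 1 of 6 leave-outs.

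Extracellular matrix genes were called only upward: 6 of 24 tested members rose, with a list median of 0.08 and a positive value in 13 of the 24. Besides Col8a1, Timp1 and Fn1, these were the collagen genes Col12a1, Col5a1 and Col1a1. Col12a1 stood at 2.25, 1.54 and 2.07 CPM in control and 5.55, 5.72 and 4.30 CPM in knockout, a rise of 1.40 ± 0.16 (adjusted p = 0.000206). Fn1 stood at 54.4, 44.3 and 56.2 CPM in control and 107, 111 and 80.5 CPM in knockout. Knockout replicate 3 was the lowest of its group in both genes, yet above every control library. Col1a1 rested on 1 library: at 5.40 CPM in knockout replicate 1 against 3.76 and 3.50 in the other two, its rise of 0.70 ± 0.17 lost 31.7% of its size without that library, and its call held in 1 of 6 leave-outs. Col5a1 (0.46 ± 0.10) also kept its call in 1 of 6. Col1a1 is in the fibroblast marker list as well, and the summed level of that list was higher in every knockout library than in any control library. Of its 7 genes, Col1a1, Col1a2, Pdgfra and Pdgfrb were expressed and had a median log2 fold change of 0.40, while Dcn, Lum and Thy1 were each under 1 CPM in all 6 libraries. Pdgfra read 1.38, 0.979 and 1.80 CPM in control and 2.39, 2.28 and 1.80 CPM in knockout and was not called. The part of fibroblast-like RNA in the matrix genes was not tested.

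Genes of the dedifferentiated, invasive melanoma state overlapped with the matrix genes. Of 19 tested members, 4 rose, Fn1, Axl and Ccn1 among them, and none fell, with a list median of 0.10. Axl stood at 6.67, 6.82 and 7.05 CPM in control and 14.1, 14.0 and 10.9 CPM in knockout (adjusted p = 0.000207). All 4 calls, Ccn1 (0.46 ± 0.08) among them, held in all 6 leave-outs.

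Signalling molecules gave few calls. In the TGF-beta pathway, 2 of 22 tested genes rose: Ltbp1, which anchors latent TGF-beta in the matrix, by 1.04 ± 0.10, and the ligand Tgfb2 by 0.34 ± 0.07, the latter called in 2 of 6 leave-outs. In the IL-6 family, 1 of 15 tested genes changed. It was Il11, the gene of interleukin 11, at 0.584, 0.525 and 0.675 CPM in control and 2.42, 1.99 and 2.54 CPM in knockout. The groups lay far apart, and Il11 rose by 1.95 ± 0.15 (adjusted p = 1.57e-05) in all 6 leave-outs, while the shared receptor subunit Il6st measured -0.01. Among 22 AP-1 and immediate-early factors, Egr1 and Jund (0.49 ± 0.11) rose and Klf4 fell by 0.85 ± 0.17. Egr1 stood at 3.02, 2.94 and 3.67 CPM in control and 7.07, 7.78 and 6.71 CPM in knockout, whereas Fos measured -0.07. Jund was called in 2 and Klf4 in 3 of 6 leave-outs.

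The AP-1 letters TGANTCA, searched on both strands, occurred in 5.34% of all promoters, 11.6% of those of called rises and 7.92% of those of called falls. Shown are promoters of Il11 and of Bdnf, the gene of a neurotrophin that rose by 0.61 ± 0.09. They were chosen because each carries 1 match before its start and both genes were called in all 6 leave-outs. Both promoters belong to RefSeq starts inside the annotated genes, and use of these starts was not measured. Each line gives 60 bases with the match in capitals, 5′ to 3′ on the strand of the gene, from RefSeq, GRCm38.p6.
Bdnf (chr2:109676855-109676914, plus strand): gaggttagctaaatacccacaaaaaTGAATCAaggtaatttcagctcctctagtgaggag
Il11 (chr7:4778205-4778264, minus strand): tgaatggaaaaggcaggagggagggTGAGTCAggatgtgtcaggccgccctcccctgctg

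Of 21 tested heparan sulfate genes, 3 were called, all lower (1.61% of all tested genes were called lower). The list median was -0.14, and 9 of the 21 had a positive value. Hpse, the heparanase that cleaves heparan sulfate chains, stood at 25.2, 24.8 and 22.8 CPM in control and 12.4, 13.4 and 12.1 CPM in knockout. Sdc3, the core protein syndecan-3, stood at 14.2, 12.5 and 11.9 CPM in control and 6.76, 7.79 and 5.95 CPM in knockout. Extl1, a glycosyltransferase of the exostosin family, stood at 10.0, 11.5 and 10.5 CPM in control and 5.69, 5.67 and 5.36 CPM in knockout. None of the 3 overlapped between groups. They fell by 0.94 ± 0.09, 0.91 ± 0.11 and 0.94 ± 0.11, each in all 6 leave-outs. In retinoic acid metabolism, 2 of 12 tested genes changed, Cyp26b1 upward and the retinal reductase Dhrs3 downward by 0.67 ± 0.14, which was called in 4 of 6.

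Pigment cell genes moved slightly and only downward among the calls. Of 28 tested members of the melanocyte list, 5 fell (Sdc3, Oca2, Slc45a2, Mreg and Mc1r), none rose and 23 were not called, with a list median of -0.15. The fall of Sdc3 is also counted among the heparan sulfate genes above. Oca2, a melanosomal anion channel protein, stood at 20.6, 19.6 and 17.9 CPM in control and 10.3, 11.2 and 10.8 CPM in knockout. It fell by 0.85 ± 0.08 (adjusted p = 8.5e-05). Slc45a2, a melanosomal transporter, stood at 559, 553 and 557 CPM in control and 437, 435 and 423 CPM in knockout. It fell by 0.36 ± 0.06 (adjusted p = 0.00447), with tight and separate groups. Mreg, which acts in melanosome transfer, fell by 0.35 ± 0.06, and Mc1r, the melanocortin receptor, by 0.27 ± 0.06. Mc1r kept its call in 1 of 6 leave-outs and Mreg in 5. Mitf, the lineage factor, did not pass: 933, 942 and 901 CPM in control and 840, 842 and 848 CPM in knockout gave -0.13 ± 0.07 (adjusted p = 0.347). The knockout libraries were each lower than every control library, by a small margin. Tyr, tyrosinase, was read at 711, 867 and 741 CPM in control and 546, 542 and 661 CPM in knockout. Its log2 difference of -0.41 ± 0.12 also did not pass (adjusted p = 0.0869), and control replicate 2 and knockout replicate 3 were the highest of their groups. Most members that were not called also had a negative value. The exceptions were 7 of the 28 with a positive value, none of them called. Among these were Kit (0.27 ± 0.09), Pax3 (0.14 ± 0.06) and Pmel (0.14 ± 0.07). DESeq2 called 14 melanocyte members, and limma-voom 5.

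Neural crest and glial genes went in both directions: 2 of 17 tested members rose and 4 fell. Cpne4, a calcium-dependent membrane-binding copine, stood at 39.5, 40.6 and 40.8 CPM in control and 24.8, 24.4 and 22.9 CPM in knockout (-0.75 ± 0.08, adjusted p = 9.92e-05). S100b, a calcium-binding glial protein, fell by 0.58 ± 0.08. Both were called in all 6 leave-outs. Gfra1, a GDNF receptor, fell by 0.88 ± 0.20 and was called in 1 of 6. Cck rose, from 9.24, 8.17 and 9.08 CPM to 16.6, 17.0 and 19.0 CPM, and so did the myelin basic protein gene Mbp (0.56 ± 0.11, called in 4 of 6). A promoter of Cpne4 is shown because it holds a match to TCATGTG, the core of the M-box bound by MITF, in capitals. On both strands, these letters occurred in 2.31% of all promoters, 1.4% of those of called rises and 4.95% of those of called falls. The Cpne4 promoter shown belongs to a RefSeq start inside the annotated gene, which begins at 104547286. Use of this start was not measured.
Cpne4 (chr9:104587947-104588006, plus strand): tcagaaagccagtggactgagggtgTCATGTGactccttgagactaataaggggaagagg

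CREB, for which CBP is named, gave no common direction. Of 28 tested CREB targets and cAMP signalling genes, 1 rose (Bdnf) and 4 fell (Rapgef3, Crem, Mc1r and Prkar2b), with a list median of -0.02. Bdnf stood at 3.59, 3.24 and 3.30 CPM in control and 5.56, 4.76 and 5.15 CPM in knockout. Crem, a CREB family modulator, fell by 0.55 ± 0.12 (adjusted p = 0.0189) from 35.7, 40.7 and 39.4 CPM to 25.3, 22.8 and 31.0 CPM. Its call held in 2 of 6 leave-outs, that of Prkar2b, a regulatory subunit of protein kinase A (-0.26 ± 0.07), in 0 of 6. The CRE letters TGACGTCA, searched on both strands, were found in 2.92% of all promoters, 0.93% of those of called rises and 1.32% of those of called falls.

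Genes of the integrated stress response fell in 4 of 32 tested members and rose in none, with a list median of -0.07. Ero1l, an oxidase of the endoplasmic reticulum, stood at 86.5, 79.2 and 83.8 CPM in control and 63.9, 61.9 and 60.4 CPM in knockout. It fell by 0.42 ± 0.06 (adjusted p = 0.00141) in all 6 leave-outs, and the groups were well apart. Slc7a11, the cystine transporter, fell by 0.46 ± 0.09 (called in 4 of 6), the pseudokinase gene Trib3 by 0.34 ± 0.07 (2 of 6) and the stress factor Ddit3 by 0.32 ± 0.07 (3 of 6). Among 20 small heat shock and chaperone genes, Hspb7 (1.66 ± 0.20) and Hspb6 (0.67 ± 0.08) rose in all 6 leave-outs. Hspb7 read 2.28, 1.81 and 1.32 CPM in the knockout libraries against 0.542 to 0.597 CPM in control.

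Among chromatin genes, Crebbp was the only one of 16 lysine acetyltransferase genes called in the full fit. Of 24 partner factors of CBP and p300, 1 rose and 1 fell. The fall was that of Cited1, a MITF cofactor that binds both coactivators, by 0.57 ± 0.13 (called in 2 of 6 leave-outs). None of 20 deacetylase and sirtuin genes was called by edgeR (3 at an unadjusted p under 0.05, 2 by DESeq2, 0 by limma-voom). Growth and metabolic programmes gave similarly few calls. Of 30 replication and E2F targets, 0 were called by edgeR (4 unadjusted, 3 by DESeq2, 0 by limma-voom). Of 28 G2/M genes, the ubiquitin-conjugating enzyme gene Ube2c rose by 0.30 ± 0.06. Of 27 genes of MYC and ribosome biogenesis, the spermidine synthase gene Srm rose by 0.28 ± 0.07, in 1 of 6 leave-outs. Of 25 cholesterol genes, edgeR called 0 (6 unadjusted, 1 by DESeq2, 0 by limma-voom), and of 25 p53 targets 0 (8 unadjusted, 4 by DESeq2, 0 by limma-voom). Of 26 hypoxia genes, Ndrg1, a stress-responsive differentiation gene, fell by 0.45 ± 0.09 in all 6 leave-outs. Of 20 clock genes, the repressor Nfil3 rose by 0.31 ± 0.07, in 0 of 6. Cytosolic ribosomal protein genes had a list median of -0.11, with 0 of 28 called by edgeR (2 unadjusted, 0 by DESeq2, 0 by limma-voom). None of the 13 mitochondrially encoded genes was called by edgeR, DESeq2 or limma-voom (0 unadjusted).

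**Figure D3:**
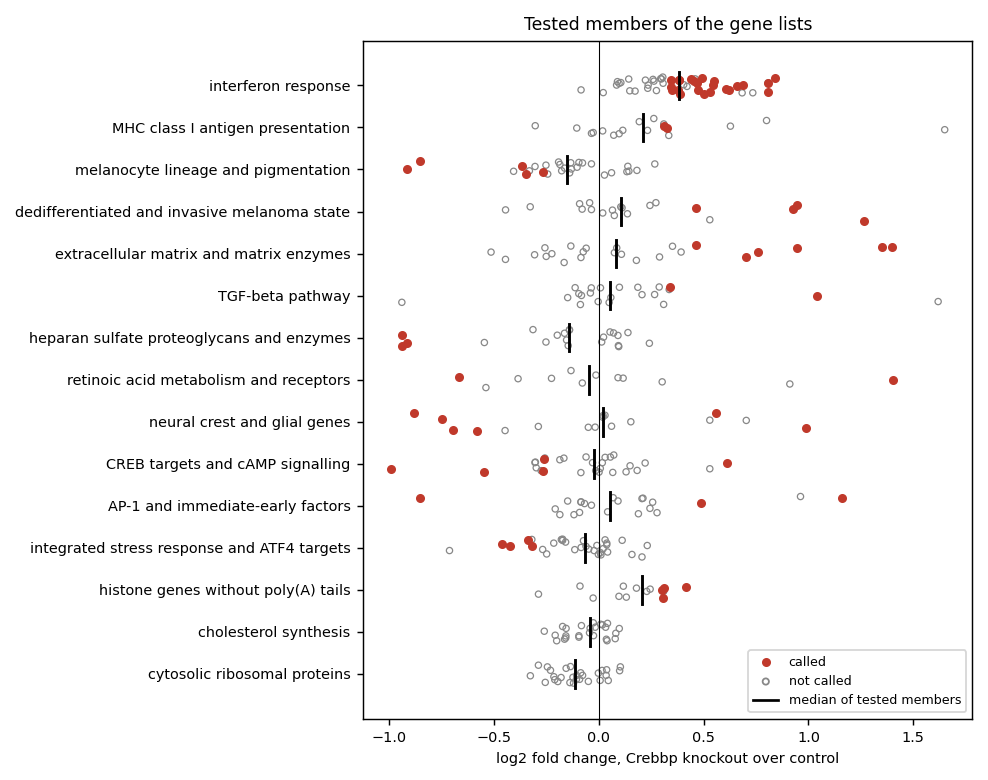
Log2 fold change of Crebbp knockout over control for each tested member of 15 gene lists; filled points are called genes, open points are not called, and the bar is the median of the tested members. The interferon list has the highest median shown (0.38), and the called members of the heparan sulfate and melanocyte lists all lie below 0.

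Single libraries decided much of the count. Without control replicate 1, 365 genes were called, without control replicate 2, 472, and without control replicate 3, 246. Without Crebbp-knockout replicates 1, 2 and 3 the counts were 299, 214 and 548. The fewest genes were thus called without Crebbp-knockout replicate 2 or control replicate 3. The genes called with at least 2-fold change numbered 91 in the full fit, 55 when control replicate 3 was left out and 48 when knockout replicate 2 was. Leaving out both libraries that leaned to short genes left 412 calls, 187 higher and 225 lower. Libraries outside the comparison also moved the count, with the genes tested and the shared dispersion both changing: without 1 double-knockout library 397 to 450 genes were called, and without 1 Ep300-knockout library 484 to 774. A fit to the 6 compared libraries alone called 257.

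Of the 577 genes, 167 (28.9%, or 0.906% of those tested) were called in all 6 leave-outs of compared libraries, 73 higher and 94 lower. Another 44 were called in none of the 6, 130 in 1 and 124 in 2. The median size of the change was 0.66 on the log2 scale in the 167 and 0.45 in the 44. Of the called genes, 142 (60 higher, 82 lower) were called under every one of the 21 other settings. None changed sign under them, but the groups did not overlap in any called gene, so leaving out libraries could hardly reverse one. By the largest adjusted p over the 6 leave-outs, the firmest genes at 5 CPM or more were Col8a1 (1.04e-05), Isg15 (0.000277), Cyp26b1 (0.000347), Rapgef3 (0.000949) and Sparcl1 (0.00101). Sparcl1, a secreted matrix-associated protein, read 86.4, 79.3 and 79.6 CPM in control and 50.1, 50.3 and 45.5 CPM in knockout, a fall of 0.75 ± 0.08.

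**Figure D4:**
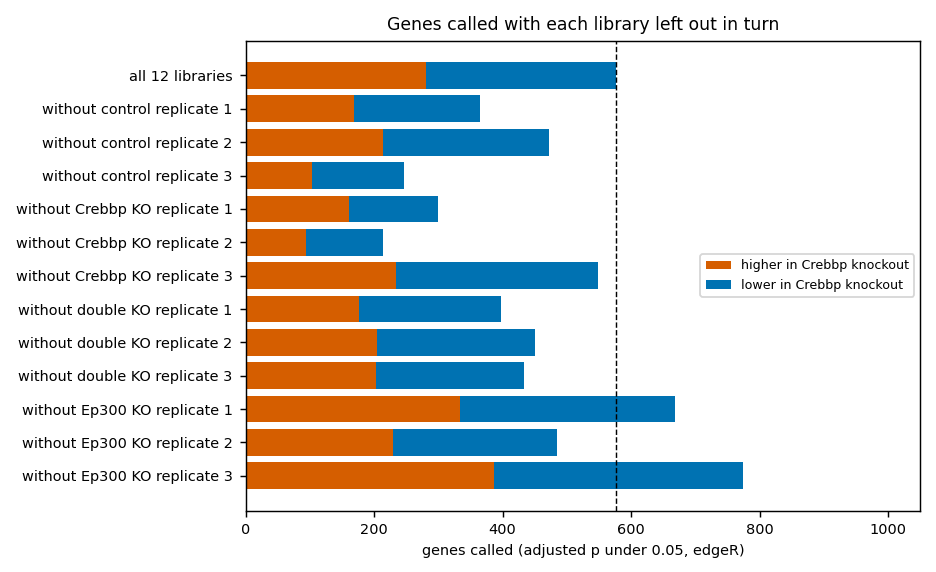
Number of genes called higher (orange) and lower (blue) in Crebbp knockout against control, in the fit to all 12 libraries and with each library left out in turn; the dashed line marks the 577 of the full fit. Counts run from 214 without Crebbp-knockout replicate 2 to 774 without Ep300-knockout replicate 3.

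At a mean of 5 CPM or more, and leaving out predicted and clone-named genes, 5 calls lost the largest share of their change without 1 library. Mpzl1, a cell surface glycoprotein, read 141, 174 and 145 CPM in control and 122, 123 and 126 CPM in knockout. Its log2 fold change went from -0.31 to -0.21 without control replicate 2, the highest control library. Tnfaip8, a regulator of apoptosis, read 23.6, 33.1 and 25.9 CPM in control and 19.1, 19.0 and 20.1 CPM in knockout. It went from -0.50 to -0.35 without that same library. Fez1, a kinesin adaptor (-0.47 to -0.33), and Txnrd2, the mitochondrial thioredoxin reductase (-0.39 to -0.28), also depended on control replicate 2. Uchl1, a neuronal deubiquitinase, read 45.1, 53.2 and 47.0 CPM in control and 60.4, 57.4 and 73.7 CPM in knockout, and went from 0.40 to 0.28 without Crebbp-knockout replicate 3. All 5 had separate groups, so leaving out 1 library could hardly change their sign, and none changed it.

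The kinds of transcripts differed in how firm their calls were. Of 12882 protein-coding genes tested, 448 were called (3.48%), 196 higher and 252 lower, and 150 of these held in all 6 leave-outs. Of 2095 pseudogenes, 74 were called higher and 4 lower (3.72%), but 7 held in all 6. The pseudogene rises numbered 41, 60 and 9 when control replicate 1, 2 or 3 was left out. They numbered 59, 11 and 29 without knockout replicate 1, 2 or 3. With both libraries that leaned to short genes left out, they numbered 31. DESeq2 called 189 such rises, limma-voom 55 and the fit with offsets for exon length and GC content 118. Pseudogenes share reads with their parent genes, so these counts are uncertain. Long noncoding genes went the other way: of 2090 tested, 3 were called higher and 37 lower (1.91%), and the 10 that held in all 6 leave-outs were all lower. Among genes at a mean of 5 CPM or more, the shortest quartile by exon length gave 93 rises and 39 falls, and the longest 19 rises and 67 falls. Called rises had a median exon length of 2600 bases and called falls of 4166, against 3336.5 over all tested genes. With offsets for exon length and GC content in the fit, 1160 genes were called, 576 higher and 584 lower. Of the 577 genes, 560 (97.1%) stayed called in that fit, among them all 167 called in all 6 leave-outs. The 577 kept a median of 98.9% of their log2 fold change, with 47.7% the lowest. The part of the length trend of single libraries in these splits was not tested.

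Histone genes without poly(A) tails, whose transcripts a poly(A) selection should mostly lose, rose in 4 of 14 tested members (Hist2h3c2, Hist1h1e, Hist1h1c and Hist1h4d), with a list median of 0.20. Hist2h3c2 read 97.5, 99.6 and 95.1 CPM in control and 122, 127 and 140 CPM in knockout, with knockout replicate 3 the highest (0.41 ± 0.07). It was the only one of the 4 called in all 6 leave-outs. Hist1h1e and Hist1h4d were called in 1 of 6 and Hist1h1c in 0. Whether these rises reflect how RNA was selected was not tested, nor was their part in the other results.

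The libraries labelled double knockout were set against those labelled Ep300 knockout, a contrast that by its labels differs in Crebbp and shares no library with the comparison above. Crebbp fell there by 0.33 ± 0.11 (adjusted p = 0.0331) and Ep300 rose by 0.80 ± 0.10 (adjusted p = 3.02e-05), so the contrast differs in the transcripts of both genes. In it 6376 genes (34.6% of those tested) were called. Of the 577 genes called in Crebbp knockout against control, 463 (80.2%) had the same sign in this contrast, against 65.0% of all tested genes. For 346 (60.0%, against 26.2%) the change was called with the same sign, and for 39 with the opposite sign (6.76%, against 8.43%). Among the 167 genes firm to leave-outs, 150 (89.8%) had the same sign, 135 (80.8%) were called with it and 9 were called with the opposite one. Across genes, which are not independent replicates, Pearson's r of the log2 fold changes in both contrasts was 0.62 over the 577 and 0.27 over all tested genes. Within the 281 called higher it was 0.14, and within the 296 called lower 0.27. The value of 0.62 thus largely reflects shared sign and does not show that sizes matched. Rapgef3 fell by 0.99 in Crebbp knockout over control and by 1.05 ± 0.10 in the labelled double over Ep300 knockout. Hpse (-0.94 and -1.04), Extl1 (-0.94 and -1.09), Sdc3 (-0.91 and -1.03) and Fn1 (0.95 and 0.81) also changed in both contrasts.

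The difference between these contrasts was tested as an interaction. It was called for 223 of the 577 (38.6%, against 10.3% of all tested genes). In the labelled double over Ep300 knockout, the change was larger in the same direction for 108 of the 223. It was smaller in the same direction for 15 and of opposite sign for 100. The interaction contains the Crebbp-knockout and control values by which the 577 were chosen. That choice alone can raise the share called and the number of smaller or opposite changes. Ifit1 rose by 0.49 in Crebbp knockout over control and by 2.00 ± 0.07 in the other contrast (interaction 1.51 ± 0.10, adjusted p = 2.24e-07). Cmpk2, a mitochondrial nucleotide kinase induced by interferon, rose by 0.38 and by 1.82 ± 0.06 (interaction 1.44 ± 0.09). Tg, the thyroglobulin gene, fell by 0.49 and by 2.23 ± 0.09 (interaction -1.74 ± 0.12). Oca2 fell by 0.85 and by 1.73 ± 0.09. Col8a1 went the other way, rising by 1.35 and by 0.45 ± 0.07. Cck changed sign, rising by 0.99 over control and falling by 1.00 ± 0.13 in the other contrast (interaction -1.98 ± 0.17, adjusted p = 4.29e-06). So did Slc7a11 (-0.46 and 0.63) and Trib3 (-0.34 and 0.66).

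**Figure D5:**
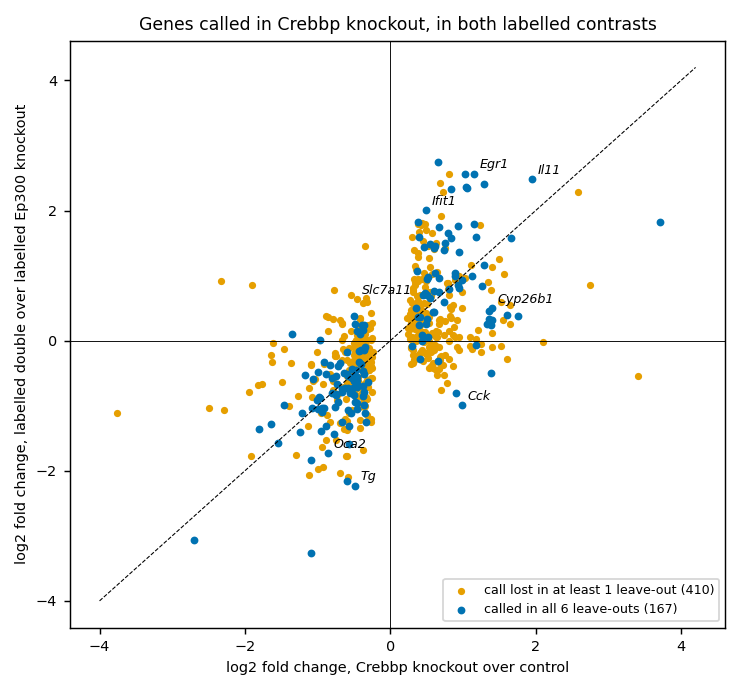
Log2 fold change of Crebbp knockout over control (horizontal) and of the libraries labelled double knockout over those labelled Ep300 knockout (vertical), 1 point per gene of the 577 called in the first; the dashed line marks equal change. Blue points (167) were called in all 6 leave-outs and orange points (410) were not; Ifit1 and Egr1 lie above the line and Cck lies below 0 on the vertical axis.

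Set beside the libraries labelled Ep300 knockout, in which the Ep300 transcript was not lower beyond the spread, Crebbp knockout gave other values for several named genes. Both sets of values share the control libraries, so the direct test between these groups is given, which called 2512 genes (13.6%). The labelled Ep300 knockout against control called 2969 (16.1%). Interferon members were lower in Crebbp knockout than in the labelled Ep300 knockout in 47 of 48 cases: Isg15 rose by 0.84 in Crebbp knockout and by 3.08 ± 0.07 in the labelled Ep300 knockout (difference -2.24 ± 0.06, adjusted p = 8.93e-12). Cyp26b1 rose by 1.40 in Crebbp knockout and fell by 1.80 ± 0.13 in the labelled Ep300 knockout (difference 3.20 ± 0.13, adjusted p = 2.26e-10). Cck rose by 0.99 and fell by 2.35 ± 0.11 respectively (difference 3.33 ± 0.11), and Mbp and Dhrs3 also went opposite ways. Serpinb9b fell by 0.79 in Crebbp knockout and measured -0.06 ± 0.14 in the labelled Ep300 knockout (difference -0.73 ± 0.15, adjusted p = 0.00318). Crem fell by 0.55 and measured -0.05 ± 0.11 (difference -0.50 ± 0.11, adjusted p = 0.0081). Oca2 fell by 0.85 and by 0.48 ± 0.08 (difference -0.37 ± 0.08, adjusted p = 0.00665). Rapgef3 fell by 0.99 and by 1.08 ± 0.09, with a difference of 0.09 ± 0.09 that did not pass (adjusted p = 0.588). Extl1 fell by 0.94 and by 0.71 ± 0.11, with a difference of -0.23 ± 0.11 that also did not pass (adjusted p = 0.211).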

How the data were processed

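mRNA-seq libraries (RNeasy Plus Mini extraction, KAPA Stranded mRNA-Seq kit, per the labels' protocols) of B16F10 cells were analysed. The deposited values are raw counts of reads, 1 column a library, for Ensembl genes. Per the submitters' processing notes, the authors used bcl2fastq, HISAT2 and HTSeq on mm10. Tool versions, strand setting and annotation release: not given in the sources used here; therefore reads of overlapping antisense genes may not be separated. A GENCODE M21 annotation (GRCm38) matched 54723 of the 54752 genes. The other 29 held at most 0.0378 per mille of a library's counts.

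Genes passing filterByExpr were scaled by TMM and tested with the robust quasi-likelihood F test of edgeR 4.0.16 (R 4.3.3), with group as the only term and all 12 libraries sharing the dispersion. Benjamini-Hochberg adjustment ran over the 18434 tested genes, with a threshold of 0.05. A gene past it is termed called. Standard errors were derived from F, with n = 3 libraries in each group. The scripts were tested on simulated data. Alternatives were DESeq2 1.42.0, limma-voom (limma 3.58.1), RLE size factors, other filters on low counts, only the compared groups, a replicate block, offsets for exon length and GC content, and each library left out in turn. Leaving out control replicate 2 together with Crebbp-knockout replicate 3 was chosen after seeing the data.

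Named genes were Crebbp and Ep300, the called genes at 5 CPM or more with separate groups that rose most (12) or fell most (12), at most 3 called members per list by smallest adjusted p, the 5 genes that lost most of their change without 1 library, the 5 firmest, and 3 with the strongest interaction. Predicted and clone-named genes were counted and not named, and some genes that the rule chose are not reported here. Other genes named to complete a list's called members, or as members that were not called, were chosen after their values were seen. The members and the 32 lists were chosen with earlier results of these data known. No column of another series was present.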

Additional observations from a re-analysis of the deposited data

Results flagged for a closer look

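For 38 of the named genes the change in Crebbp knockout over control differed from that in the libraries labelled double knockout over those labelled Ep300 knockout, by the interaction test of edgeR (adjusted p under 0.05). Most named genes were chosen by Crebbp-knockout and control values, which the interaction contains, so this number is not independent of the choice. The values below are interaction differences: the log2 fold change in the second contrast minus that in the first. The Ep300 transcript was not lower in the labelled Ep300 knockout than in control beyond the spread, so the second contrast is named by its labels only.

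Of interferon-response and class I genes, those named for a called difference had positive ones, with larger rises in the second contrast: 1.51 for Ifit1, 1.44 for Cmpk2, 1.06 for H2-K1, 0.87 for Trim30a, 0.82 for Xaf1, 0.74 for Isg15 and 0.44 for B2m. Not every interferon gene differed: Rtp4 measured -0.02 (adjusted p = 0.937) and Irf9 0.10 (adjusted p = 0.658). Matrix, invasion and signalling genes were mixed. Differences were 1.41 for Egr1, 1.33 for Ltbp1, 0.84 for Axl, 0.84 for Bdnf and 0.75 for Timp1, which rose more in the second contrast. They were -0.90 for Col8a1, -0.90 for Cyp26b1, -1.08 for Col12a1 and -1.46 for Col1a1. Col1a1 changed sign, from 0.70 to -0.76, as did Cck, whose difference was -1.98.

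Falls that were deeper in the second contrast, those of pigment cell genes among them, had differences of -1.74 for Tg, -0.88 for Oca2, -0.65 for Enho, -0.63 for Slc45a2, -0.60 for Ndrg1 and -0.40 for Mpzl1. Stress genes, which fell in Crebbp knockout over control, had positive differences: 1.10 for Slc7a11, 1.00 for Trib3 and 0.53 for Ero1l, with Ero1l at 0.10 ± 0.06 in the second contrast. Klf4 (1.22), Dhrs3 (0.67) and Ppp1r16b (0.64) also had positive differences, as had Nfil3 (0.50), which rose more in the second contrast.

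Histone genes had differences of -0.70 for Hist2h3c2, -0.66 for Hist1h1e and -0.38 for Hist1h1c. Growth genes had -0.37 for Ube2c and -0.39 for Srm, and the structured RNA Rn7s2 had -1.26. Of the targeted genes, Crebbp had a difference of 0.57, from a fall of 0.91 to one of 0.33. Crebbp read 57.1 to 68.7 CPM in the labelled double knockout and 56.7 to 69.5 in control. Ep300 had a difference of 0.66, from 0.14 ± 0.10 to a rise of 0.80 ± 0.10 (adjusted p = 3.02e-05), at 148 ± 11.1 CPM in the labelled double knockout, 85.1 ± 8.80 in the labelled Ep300 knockout and 94.4 ± 7.72 in control (SD, n = 3).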

How the results depend on the processing

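The count of called genes depended on the settings. No called gene changed sign under any of the 21, which the separate groups of all called genes made nearly certain. Against 577 genes (281 higher, 296 lower, 91 with at least 2-fold change), DESeq2 called 1279 (690, 589, 139), no filter on low counts 1270 (638, 632, 172), the offsets for exon length and GC content 1160 (576, 584) and only the groups compared 257 (125, 132, 55). With 1 CPM in at least 3 libraries, 56 genes had a called change of at least 2-fold. Leaving out 1 library each gave 214 to 774 called genes, 94 to 386 higher, 120 to 388 lower and 48 to 109 with at least 2-fold change; 1119 to 2861 interactions were called, against 1897. Leaving out control replicate 2 with Crebbp-knockout replicate 3 gave 187 higher.

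With the replicate number as a block, 321 genes were called (151 higher, 170 lower). Same-numbered control and Crebbp-knockout libraries did not deviate together (correlations of 0.08, -0.10 and -0.11). These values gave no sign of pairing by number but do not settle it.

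Among the values of the 63 named genes under these settings, 1143 kept sign and side of the threshold, 180 kept the sign and lost the call, and 0 reversed. For the called genes among them, separate groups left little room for a reversal.

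The 9.46% coefficient of variation between libraries and 3 libraries a group limit the calls of small changes. For 3 libraries against 3 an exact permutation test cannot go below 0.1. Results below 1 CPM, pseudogenes and single paralogues rest on few or shared reads.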

Other observations

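Another 3 gene lists were added after the values were seen, and describe calls that, apart from Slc7a11, the lists above leave out. Of 31 tested glutathione genes and NRF2 targets, 4 fell and none rose, with a median log2 fold change of -0.13 against -0.01 over all tested genes. Over all tested genes, 1.61% were called lower. Gstm1, a glutathione transferase, fell from 27.4 ± 3.14 CPM in control to 17.2 ± 1.01 in Crebbp knockout (SD, n = 3), a log2 change of -0.67 ± 0.09. Srxn1, the sulfiredoxin gene, fell from 49.4 ± 2.89 to 35.2 ± 1.11 CPM (-0.49 ± 0.06), and Ephx1, an epoxide hydrolase, from 149 ± 2.05 to 109 ± 3.54 CPM (-0.46 ± 0.06). These 3 were called under all 21 other settings. The fourth, Slc7a11, was called under 19.

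Of 34 tested lysosomal genes, Lipa, the lysosomal acid lipase, fell by 0.53 ± 0.07 on the log2 scale, and the proteases Ctsd and Ctsb by 0.35 ± 0.06 and 0.33 ± 0.07. Ids, a sulfatase that acts on heparan and dermatan sulfate, rose by 0.27 ± 0.07 and was called in 1 of 6 leave-outs. Of 28 tested integrin and focal adhesion genes, Itgb3, Itga4 and Itga1 fell by 0.50 ± 0.08, 0.47 ± 0.09 and 0.50 ± 0.10, and Tns1, which encodes tensin 1, by 0.76 ± 0.17. Tns1 was called in 1 of 6 leave-outs and under 14 of the 21 other settings. Itga3 rose, from 1.58 ± 0.107 to 2.92 ± 0.260 CPM (0.89 ± 0.12). Itga3, Itga4 and Itgb3 were called under all 21 other settings.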
